A study of Homo sapiens with 13 samples.

Results

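The genes described here are 32 genes of the ATF4 response and the unfolded protein response, taken by symbol from the expression tables, and all 32 were found among the 22613 entries and passed the filter on low values that left 15780 genes. They comprise 22 amino acid response genes and 10 genes of the endoplasmic reticulum (ER) chaperone list. All 10 are called ER chaperone genes below, although HERPUD1 acts in ER-associated degradation and XBP1 is a transcription factor. RNA was sequenced from LNCaP-abl cells, a subline of prostate cancer LNCaP cells that grows without androgen, kept in medium with charcoal-stripped, hormone-depleted serum. Cells were harvested 72 h after transfection with a pool of siRNAs. The targets were the Polycomb subunits EED and EZH2, the chromatin loop proteins RAD21 and CTCF, the DNA repair proteins BRCA1 and BRCA2, the forkhead factors FOXA1 and FOXM1, the histone demethylase KDM1A, the chromatin remodeller SMARCA4 and the long non-coding RNAs PCAT1 and MALAT1. The control received an siRNA labelled siControl2, and each group has 1 library. As far as the labels say, all groups share the cell line, medium and transfection and differ in the siRNA named. Nothing in the labels describes separate cultures or replicates, so no difference below carries a replicate error or a test, and each is a description of 2 libraries. Values are FPKM, a fragment count scaled for transcript length and library size, and differences are knockdown minus control on the log2(FPKM + 1) scale, which understates the change of genes with few FPKM. A difference of at least 1 in size is called 2-fold. Read depth is unknown.

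ATF4 is a transcription factor whose protein is made mainly when the initiation factor eIF2 is phosphorylated, which happens when amino acids run short, when unfolded proteins gather in the ER, when double-stranded RNA is present or when heme is lacking. It turns on genes for amino acid synthesis and uptake, tRNA charging and the stress factors DDIT3 and TRIB3. The ER branch of the response also runs through ATF6 and IRE1, which with its product, spliced XBP1, turn on chaperones such as HSPA5. FPKM per gene show neither the translation of ATF4 nor the splicing of XBP1.

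The stretches of promoter shown here are those that carry a known response element upstream of a member, so that the values below can be read beside the sequence. All come from RefSeq on GRCh38.p14, whereas the FPKM were made on hg19, and members were matched by symbol: 19 of 22 amino acid response genes and 10 of 10 ER chaperone genes matched. The 250 bases before each start were searched on both strands for the C/EBP-ATF response element core TGATGNAA, to which ATF4 binds, for the ER stress response element, CCAAT and CCACG with 9 bases between them, and for TGACGTGG, an element bound by XBP1 and ATF6. None of the matches overlapped another. Capitals mark the match. In CHAC1 and HERPUD1 it lies on the opposite strand and so reads as the reverse complement. The C/EBP-ATF core was found in CHAC1, ASNS, AARS and GARS, 4 of the 19 matched amino acid response genes, and in HERPUD1, 1 of 10 ER chaperone genes, against 3.89% of all 27167 genes in the promoter table.
CHAC1, chr15:40953222-40953309, plus strand: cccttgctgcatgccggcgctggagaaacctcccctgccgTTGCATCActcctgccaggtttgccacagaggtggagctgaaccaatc
ASNS, chr7:97872429-97872516, minus strand: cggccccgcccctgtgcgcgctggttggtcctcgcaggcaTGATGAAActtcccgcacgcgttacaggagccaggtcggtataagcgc
HERPUD1, chr16:56931926-56932013, plus strand: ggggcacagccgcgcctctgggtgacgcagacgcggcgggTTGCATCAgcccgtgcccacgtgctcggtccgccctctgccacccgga

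The ER stress response element was found in HSPA5, HSP90B1, XBP1 and CALR, 4 of 10 ER chaperone genes, in 0 of 19 amino acid response genes and in 0.0920% of all genes in the table. HSP90B1 had 2 matches, of which the farther from the start is shown. CALR is printed as the opposite strand of its element, so CCACG reads CGTGG and CCAAT reads ATTGG. TGACGTGG was found in HYOU1 alone among the members, and in 0.784% of all genes.
HSPA5, chr9:125241351-125241449, minus strand: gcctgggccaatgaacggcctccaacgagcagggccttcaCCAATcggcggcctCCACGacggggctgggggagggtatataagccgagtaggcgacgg
XBP1, chr22:28800570-28800661, minus strand: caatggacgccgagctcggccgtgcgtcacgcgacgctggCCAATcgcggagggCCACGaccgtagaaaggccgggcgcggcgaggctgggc
HSP90B1, chr12:103930176-103930274, plus strand: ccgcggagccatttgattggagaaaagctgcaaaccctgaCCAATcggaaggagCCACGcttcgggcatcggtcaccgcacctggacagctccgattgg
CALR, chr19:12938359-12938442, plus strand: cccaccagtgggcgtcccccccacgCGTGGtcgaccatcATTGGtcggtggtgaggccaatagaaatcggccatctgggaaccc
A match is a string of letters, not a measured binding site, and a window without a match says nothing about the factor.

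Several facts about the whole series bear on the values. Of 11 siRNA targets analysed, 8 were lower in their own library than in the other 12, by -3.84 for FOXM1 to -0.95 for EED. BRCA1 was the 3rd lowest of 13 in its library, BRCA2 the 9th, whereas MALAT1 RNA was higher in the library labelled siMALAT1 (21.7 FPKM) than under control siRNA (16.4 FPKM), which goes against that label. The PCAT1 transcript was not analysed here, so that label has no check. The luminal prostate markers HOXB13, FOLH1, KRT8, KRT18 and EPCAM were at 37.7 FPKM or more in all 13 libraries. KLK3 and KLK2, androgen-induced secretory genes, were at 0.524 and 1.70 FPKM or less. The basal marker KRT14 was at 0.830 FPKM or less, and the summed markers of fibroblasts were between 1.15 and 3.77 FPKM and those of leukocytes between 4.85 and 12.2 FPKM, mostly CD68. The endothelial marker PECAM1 was at 1.01 FPKM or less. All 12 differences share the 1 control library. An exact permutation test of that library against 12 others could not give a p below 0.0769, so no test was made. In bulk RNA a change in the mix of cells and a change in RNA per cell cannot be told apart.

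The amino acid response and ER chaperone genes did not move as 1 block. Most 2-fold differences came from 5 genes, the stress effectors DDIT3, PPP1R15A and CHAC1 and the ER genes DNAJB9 and HERPUD1. Over the 32 genes and 12 knockdowns there were 28 differences of at least 2-fold upward and 2 downward, and these 5 genes gave 26 of the 28. Over all genes and the same 12 knockdowns, 1.10% of differences were 2-fold upward and 2.04% downward. The amino acid response genes had 20 of 264 upward and 1 of 264 downward, and the ER chaperone genes 8 of 120 and 1 of 120. Within the amino acid response list, the regulators and stress effectors had 18 of 96 upward. The enzymes had 1 of 84, the transporters 1 of 36 and the tRNA synthetases 0 of 48. Amino acid enzymes, transporters and tRNA synthetases were split, highest in siEED for ASNS, MTHFD2, SHMT2, SLC7A5, AARS, GARS and WARS. With CHAC1, 8 of 22 amino acid response genes were highest in siEED, beside 7.16% of all genes, whereas 7 of 10 ER chaperone genes were highest in siFOXM1, beside 10.4% of all genes. ATF4 itself differed by 0.32 or less upward and by -0.56 or more downward. Of the 32 genes, 9 reached 2-fold in at least 1 knockdown, beside 16% of all genes, and 23 in none. The range over the 13 libraries had a median of 1.06 log2 units for the 32 genes, 1.07 for the 22 amino acid response genes and 0.87 for the 10 ER chaperone genes, beside 0.82 for all 15780 genes.

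**Figure D1:**
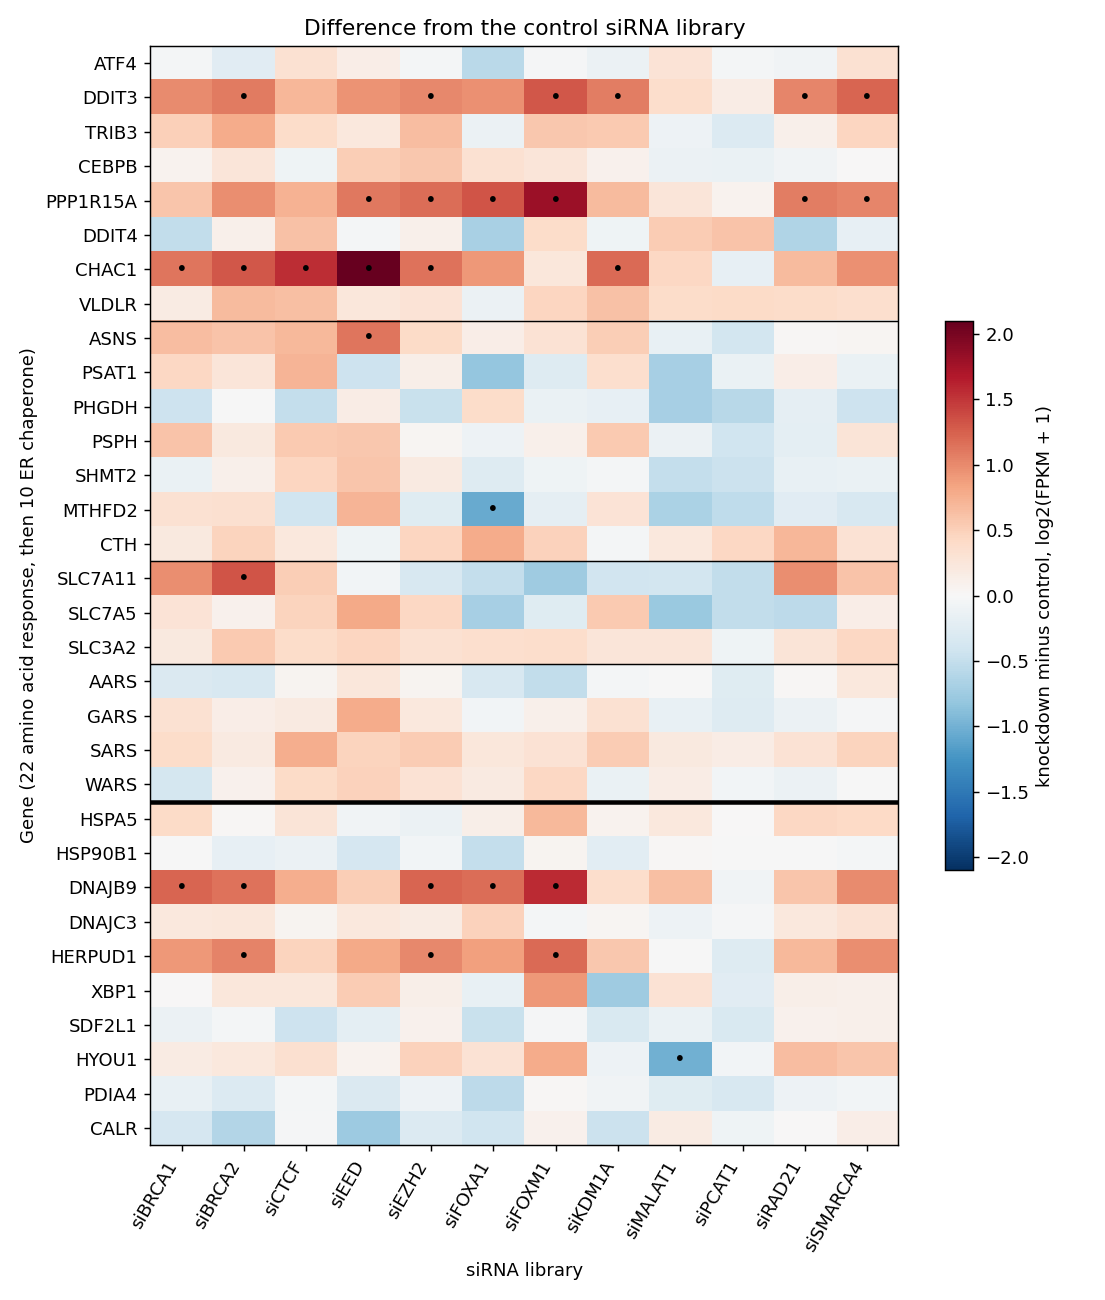
Differences from the control siRNA library on the log2(FPKM + 1) scale, with 32 genes as rows (amino acid response above the thick line, ER chaperone list below it) and 12 knockdown libraries as columns; red is higher and blue lower than the control, and a dot marks at least 2-fold. Most dots lie in the rows of DDIT3, PPP1R15A, CHAC1, DNAJB9 and HERPUD1, and the siPCAT1 column has 0 dots.

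The first group is the regulators and stress effectors. ATF4 was at 293 FPKM in siBRCA1, 256 in siBRCA2, 376 in siCTCF, 333 in siEED, 293 in siEZH2, 205 in siFOXA1, 298 in siFOXM1, 278 in siKDM1A, 369 in the library labelled siMALAT1, 294 in siPCAT1, 288 in siRAD21 and 379 in siSMARCA4, against 303 FPKM in the control. The siSMARCA4, siCTCF and siMALAT1-labelled libraries held the highest levels and siFOXA1 the lowest, and the control was the 9th lowest of 13. GENCODE lists 4 pseudogenes named after ATF4, so part of its reads may be shared with copies, as for 9 other members with such pseudogenes (ASNS, PSAT1, PSPH, MTHFD2, SLC7A5, AARS, GARS, WARS and XBP1).

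DDIT3 encodes CHOP, a transcription factor that promotes death under prolonged ER stress. It was at 64.9 FPKM in siBRCA1, 69.5 in siBRCA2, 52.8 in siCTCF, 62.3 in siEED, 65.6 in siEZH2, 63.4 in siFOXA1, 80.2 in siFOXM1, 68.2 in siKDM1A, 41.5 in the library labelled siMALAT1, 36.0 in siPCAT1, 66.4 in siRAD21 and 75.6 in siSMARCA4, against 32.01 FPKM in the control. The control was the lowest library, siPCAT1 and the library labelled siMALAT1 came next, and the other 10 lay between 52.8 and 80.2 FPKM. The difference was at least 2-fold in 6 knockdowns, siFOXM1 (1.30), siSMARCA4 (1.21), siBRCA2 (1.10), siKDM1A (1.07), siRAD21 (1.03) and siEZH2 (1.01), and 0.996 in siBRCA1.

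PPP1R15A encodes GADD34, which brings a phosphatase to eIF2 and so ends the translational block. It was at 3.59 FPKM in siBRCA1, 5.04 in siBRCA2, 4.08 in siCTCF, 5.63 in siEED, 5.96 in siEZH2, 6.63 in siFOXA1, 9.63 in siFOXM1, 3.86 in siKDM1A, 2.67 in the library labelled siMALAT1, 2.22 in siPCAT1, 5.47 in siRAD21 and 5.26 in siSMARCA4, against 2.07 FPKM in the control. Again the control, siPCAT1 and the library labelled siMALAT1 were the 3 lowest. The largest difference was in siFOXM1 (1.79), followed by siFOXA1 (1.31), siEZH2 (1.18), siEED (1.11), siRAD21 (1.08) and siSMARCA4 (1.03).

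CHAC1 encodes an enzyme that breaks down glutathione and is a target of ATF4 together with DDIT3. Its level was 5.98 FPKM in siBRCA1, 6.88 in siBRCA2, 8.30 in siCTCF, 12.6 in siEED, 6.06 in siEZH2, 4.99 in siFOXA1, 2.76 in siFOXM1, 6.23 in siKDM1A, 3.30 in the library labelled siMALAT1, 1.83 in siPCAT1, 4.08 in siRAD21 and 5.23 in siSMARCA4, against 2.19 FPKM in the control. The siEED library held the highest level and siPCAT1 the lowest. Here siFOXM1 was among the 4 lowest libraries, unlike for DDIT3 and PPP1R15A. The difference was 2.09 in siEED, 1.54 in siCTCF, 1.31 in siBRCA2, 1.18 in siKDM1A, 1.15 in siEZH2 and 1.13 in siBRCA1, and 0.24 in siFOXM1. Against the median of the other 11 knockdowns, siEED was still higher by 1.12 and siFOXM1 differed by -0.89.

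The other 4 regulators stayed within 2-fold. TRIB3, a pseudokinase that restrains ATF4 activity, ranged between 14.6 FPKM in siPCAT1 and 31.8 in siBRCA2, with the control at 18.1, and differed most in siBRCA2 (0.79). DDIT4, which restrains the growth kinase complex mTORC1, was lowest in siFOXA1 (36.6 FPKM), siRAD21 (37.5) and siBRCA1 (40.8) and highest in siCTCF (90.5) and siPCAT1 (89.7), with the control at 58.9. In siPCAT1 and the library labelled siMALAT1 (85.6 FPKM), DDIT4 was above the control by 0.60 and 0.53, and DDIT3 by 0.16 and 0.37. Against the median of the other 11 knockdowns the 2 genes ran opposite ways there. DDIT4 differed by 0.64 and 0.57, and DDIT3 by -0.85 and -0.65. CEBPB, a partner of ATF4, ranged between 4.71 and 8.28 FPKM and was highest in siEZH2 and siEED. VLDLR, a lipoprotein receptor gene that ATF4 can turn on, was above the control in 11 of 12 knockdowns by at most 0.67, and siFOXA1 was the exception (-0.13).

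**Figure D2:**
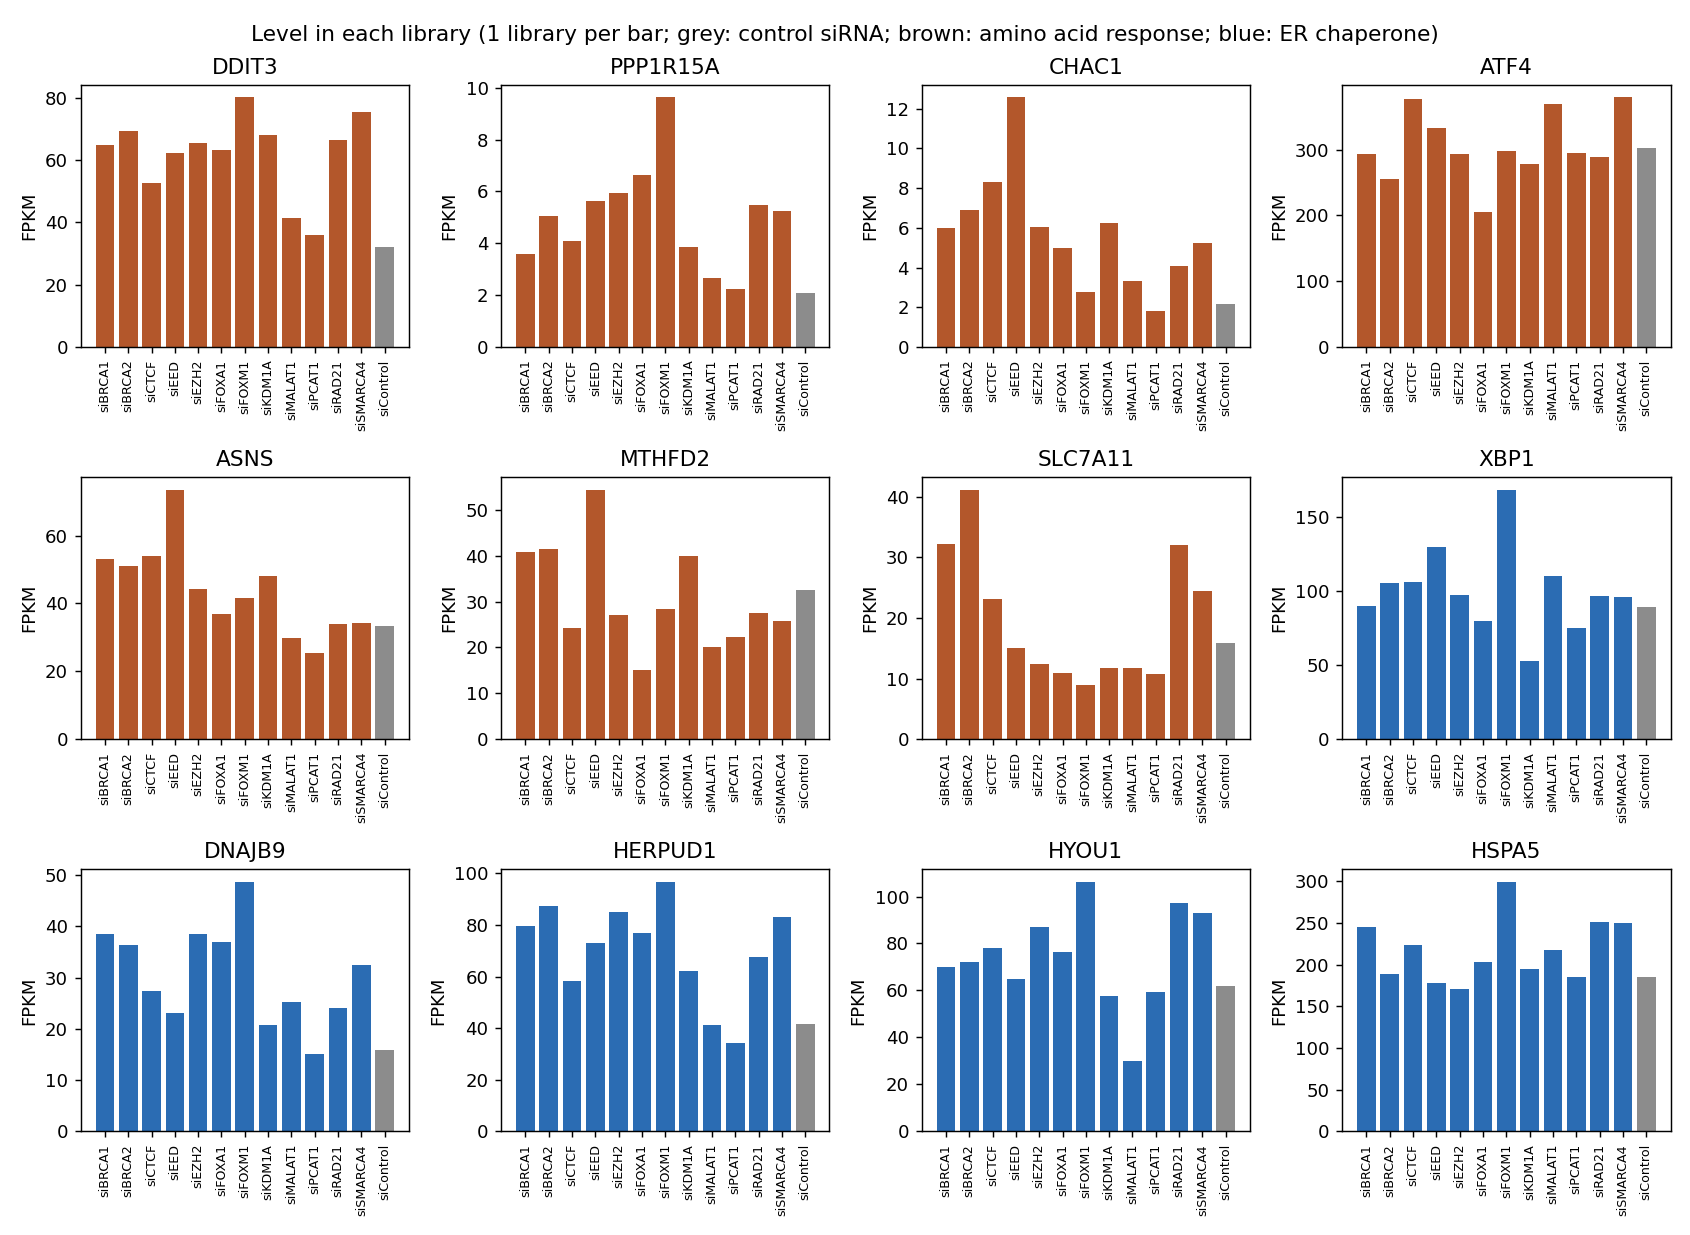
FPKM of 12 genes in each of the 13 libraries, 1 bar per library on axes that start at 0, with amino acid response genes in brown, ER chaperone list genes in blue and the control siRNA library in grey at the right. CHAC1, ASNS and MTHFD2 are highest in siEED, DDIT3, PPP1R15A, DNAJB9, HERPUD1, HYOU1, HSPA5 and XBP1 in siFOXM1, and SLC7A11 in siBRCA2.

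The second group is the enzymes of serine, glycine, asparagine and cysteine synthesis and of one-carbon metabolism. ASNS, asparagine synthetase, was at 53.1 FPKM in siBRCA1, 50.9 in siBRCA2, 54.0 in siCTCF, 73.6 in siEED, 44.3 in siEZH2, 36.9 in siFOXA1, 41.5 in siFOXM1, 48.1 in siKDM1A, 29.8 in the library labelled siMALAT1, 25.4 in siPCAT1, 34.1 in siRAD21 and 34.4 in siSMARCA4, against 33.4 FPKM in the control. Only in siEED was it 2-fold higher (1.12), and siPCAT1 and the library labelled siMALAT1 were the 2 libraries below the control. MTHFD2, a mitochondrial one-carbon enzyme, was at 40.8 FPKM in siBRCA1, 41.5 in siBRCA2, 24.2 in siCTCF, 54.4 in siEED, 27.1 in siEZH2, 15.1 in siFOXA1, 28.5 in siFOXM1, 39.8 in siKDM1A, 20.1 in the library labelled siMALAT1, 22.2 in siPCAT1, 27.5 in siRAD21 and 25.8 in siSMARCA4, against 32.6 FPKM in the control. It was lowest in siFOXA1 (-1.06), the only 2-fold decrease among the amino acid response genes, and highest in siEED (0.72).

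The 3 enzymes of the serine pathway did not share 1 order. PHGDH, which starts serine synthesis, was highest in siFOXA1 at 327 FPKM and second in siEED at 277, with the control at 250.2 and 10 knockdowns below it, down to 154 in the library labelled siMALAT1. PSAT1, the next enzyme, was lowest in that same siFOXA1 library at 32.3 FPKM against 57.3 in the control (-0.81) and highest in siCTCF at 94.8 (0.71). PSPH, which makes the last step, ranged between 11.4 FPKM in siPCAT1 and 24.1 in siBRCA1, with 15.6 in the control. In siFOXA1 PHGDH was thus the highest of 13 libraries and PSAT1 the lowest.

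SHMT2, which converts serine to glycine in mitochondria, was highest in siEED (85.4 FPKM) and siCTCF (78.4), with 56.9 in the control, and lowest in the library labelled siMALAT1 (40.1) and siPCAT1 (41.2). CTH, cystathionine gamma-lyase of cysteine synthesis, had low levels, from 2.56 FPKM in siEED, its lowest library, to 5.56 in siFOXA1. CTH and PSAT1 therefore went against ASNS, MTHFD2 and SHMT2 in siEED, where they differed from the control by -0.10 and -0.43.

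Among the transporters, SLC7A11, the cystine carrier whose import feeds glutathione synthesis, showed its own pattern. Its level was 32.2 FPKM in siBRCA1, 41.2 in siBRCA2, 23.2 in siCTCF, 15.1 in siEED, 12.4 in siEZH2, 10.9 in siFOXA1, 9.02 in siFOXM1, 11.8 in siKDM1A, 11.8 in the library labelled siMALAT1, 10.7 in siPCAT1, 32.1 in siRAD21 and 24.5 in siSMARCA4, against 15.8 FPKM in the control. It was high in siBRCA2, siBRCA1 and siRAD21, intermediate in siSMARCA4 and siCTCF, and between 9.02 and 15.8 FPKM in the control and the other 7 knockdowns. The difference was 1.32 in siBRCA2, 0.98 in siBRCA1 and 0.97 in siRAD21, and -0.75 in siFOXM1. Against the median of the other 11 knockdowns, the same 3 libraries were higher by 1.66, 1.31 and 1.31.

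SLC7A5, a carrier of large neutral amino acids such as leucine, was highest in siEED (83.9 FPKM) and siKDM1A (70.6), lowest in the library labelled siMALAT1 (27.5), siFOXA1 (29.2), siRAD21 (32.5) and siPCAT1 (33.3), and 47.9 in the control. SLC3A2, the shared heavy chain that brings both SLC7A11 and SLC7A5 to the membrane, stayed between 101 FPKM in siPCAT1 and 158 in siBRCA2, with 108 in the control. In siRAD21 the 2 light chains lay on opposite sides of the control, with SLC7A11 at 32.1 FPKM against 15.8 in the control and SLC7A5 at 32.5 against 47.9.

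The 4 tRNA synthetases charge tRNAs with alanine (AARS), glycine (GARS), serine (SARS) and tryptophan (WARS). Of these 4 genes, 0 reached 2-fold in any knockdown, beside 16% of all genes. GARS was highest in siEED at 100.2 FPKM, with 57.8 in the control (0.78), and so was AARS at 160.3, with 135 (0.24). SARS was above the control in all 12 knockdowns, by 0.15 to 0.76. WARS, which is also induced by interferon, was at 37.7 FPKM in siEED, its highest library, 20.4 in siBRCA1, its lowest, and 26.6 in the control. Over 12 interferon-stimulated genes, the median log2 difference from the control was 4.93 in siFOXM1, 3.56 in siFOXA1 and 0.18 in siEED. WARS was at 36.3, 30.5 and 37.7 FPKM in these libraries. The part of interferon signalling in the WARS level was not tested.

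Turning to the ER chaperone list, DNAJB9, HERPUD1 and HYOU1 differed most from the control. DNAJB9, a co-chaperone of HSPA5 that restrains IRE1, was at 38.5 FPKM in siBRCA1, 36.3 in siBRCA2, 27.5 in siCTCF, 23.2 in siEED, 38.5 in siEZH2, 37.0 in siFOXA1, 48.7 in siFOXM1, 20.8 in siKDM1A, 25.2 in the library labelled siMALAT1, 15.1 in siPCAT1, 24.2 in siRAD21 and 32.4 in siSMARCA4, against 15.9 FPKM in the control. It was at least 2-fold higher in siFOXM1 (1.56), siBRCA1 (1.23), siEZH2 (1.23), siFOXA1 (1.17) and siBRCA2 (1.15), and siPCAT1 was the only library below the control.

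HERPUD1, a membrane protein of ER-associated degradation, was at 79.7 FPKM in siBRCA1, 87.5 in siBRCA2, 58.4 in siCTCF, 73.1 in siEED, 85.2 in siEZH2, 76.9 in siFOXA1, 96.8 in siFOXM1, 62.1 in siKDM1A, 41.4 in the library labelled siMALAT1, 34.3 in siPCAT1, 67.8 in siRAD21 and 83.0 in siSMARCA4, against 41.8 FPKM in the control. It was at least 2-fold higher in siFOXM1 (1.19), siBRCA2 (1.05) and siEZH2 (1.01). As for DDIT3, the control, siPCAT1 and the library labelled siMALAT1 were the 3 lowest libraries. HERPUD1 was the only gene of the ER chaperone list with a C/EBP-ATF core in its promoter window, shown above.

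HYOU1, an ER chaperone that acts as an exchange factor for HSPA5, was at 70.0 FPKM in siBRCA1, 71.9 in siBRCA2, 77.9 in siCTCF, 64.8 in siEED, 87.1 in siEZH2, 76.3 in siFOXA1, 106 in siFOXM1, 57.7 in siKDM1A, 30.1 in the library labelled siMALAT1, 59.4 in siPCAT1, 97.3 in siRAD21 and 92.9 in siSMARCA4, against 61.8 FPKM in the control. The library labelled siMALAT1 stood lowest, with the only 2-fold decrease on the list (-1.01), and siFOXM1 highest (0.77). In the library labelled siMALAT1 the other 9 genes of the list differed by -0.25 (PDIA4) to 0.64 (DNAJB9).

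XBP1, the transcription factor of the IRE1 branch, was at 89.7 FPKM in siBRCA1, 105 in siBRCA2, 106 in siCTCF, 129 in siEED, 97.1 in siEZH2, 79.9 in siFOXA1, 169 in siFOXM1, 52.6 in siKDM1A, 110.5 in the library labelled siMALAT1, 75.3 in siPCAT1, 96.8 in siRAD21 and 96.2 in siSMARCA4, against 89.2 FPKM in the control. siFOXM1 held the highest level (0.91) and siKDM1A the lowest (-0.75). HSPA5, the master ER chaperone BiP, was at 245 FPKM in siBRCA1, 189 in siBRCA2, 224 in siCTCF, 177 in siEED, 171 in siEZH2, 203 in siFOXA1, 299.6 in siFOXM1, 195 in siKDM1A, 217 in the library labelled siMALAT1, 186 in siPCAT1, 251 in siRAD21 and 249 in siSMARCA4, against 186 FPKM in the control. Its highest library was also siFOXM1 (0.69), and its other differences lay between -0.12 and 0.43.

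The remaining 5 genes of the list stayed within 0.76 of the control. CALR, a calcium-binding lectin chaperone, was lowest in siEED (423 FPKM), with 717 in the control (-0.76). HSP90B1, the ER member of the HSP90 family, was lowest in siFOXA1 at 333 FPKM against 473 (-0.51), as was PDIA4, a disulfide isomerase, at 70.9 against 104 (-0.55). SDF2L1, a co-chaperone of the ER, ranged between 29.6 and 44.5 FPKM and DNAJC3, an inhibitor of eIF2 kinases, between 16.0 and 24.7. Upward, HSP90B1 and PDIA4 differed from the control by at most 0.063 and 0.020. DNAJB9, in contrast, was above the control in 11 of 12 knockdowns and HERPUD1 in 10.

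Library by library, the counts of 2-fold differences are given beside the share of all 15780 genes that passed the same fold. In siEED, 3 of 22 amino acid response genes and 0 of 10 ER chaperone genes were higher, beside 0.817% of all genes, and 0 were lower, beside 0.741%. For siBRCA2, 3 and 2 were higher, beside 0.767%, and 0 lower, beside 0.76%. siEZH2 had 3 and 2 higher, beside 0.894%, and 0 lower, beside 3.09%. In siFOXM1, 2 and 2 were higher, beside 2.59%, and 0 lower, beside 3.6%. These 4 libraries had the most upward differences.

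The siKDM1A, siRAD21 and siSMARCA4 libraries each had 2 amino acid response genes and 0 ER chaperone genes that were 2-fold higher, beside 0.754%, 0.906% and 0.494% of all genes. Lower were 0, beside 1.55%, 1.88% and 1.97%. In siBRCA1, 1 of each list was higher, beside 0.45%, and 0 lower, beside 0.944%. In siCTCF, 1 amino acid response gene and 0 ER chaperone genes were higher, beside 1.27%, and 0 lower, beside 2.85%. siFOXA1 had 1 of each list higher, beside 3.52%, and 1 amino acid response gene lower, beside 4.22%. The library labelled siMALAT1 had 0 higher, beside 0.387%, and 1 ER chaperone gene lower, beside 1.57%. For siPCAT1 both counts were 0, beside 0.323% and 1.33%.

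The list medians separated the libraries further. The amino acid response median was highest in siEED (0.48) and siCTCF (0.46), near 0.3 in siBRCA1 (0.30), siKDM1A (0.30) and siEZH2 (0.29), and lowest in siPCAT1 (-0.16), siFOXA1 (-0.08) and the library labelled siMALAT1 (-0.06). Of the 22 genes, 19 were above the control in siBRCA2 and siCTCF, 18 in siEED and siEZH2, and 6 in siPCAT1. Over all 15780 genes between 50.7% and 56.6% were above the control, with medians between 0.0057 and 0.054. The ER chaperone median was highest in siFOXM1 (0.39) and siSMARCA4 (0.23), with 8 of 10 genes above the control in each, and lowest in siKDM1A (-0.09).

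The gap between both lists, amino acid response minus ER chaperone median, was largest in siEED (0.48), siKDM1A (0.39) and siCTCF (0.31). It was smallest in siRAD21 (-0.15) and siFOXM1 (-0.14), and above 0 in 7 of 12 knockdowns. In siSMARCA4 it was 0.014. Against the median of the other 11 knockdowns, which leaves the control out, the gap was 0.49 in siEED, 0.37 in siKDM1A, 0.27 in siCTCF, -0.35 in siFOXM1, -0.24 in siSMARCA4 and -0.12 in siRAD21. The sign thus turned in siSMARCA4, and also in siBRCA1, with 0.20 against the control and -0.04 against the other knockdowns.

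**Figure D3:**
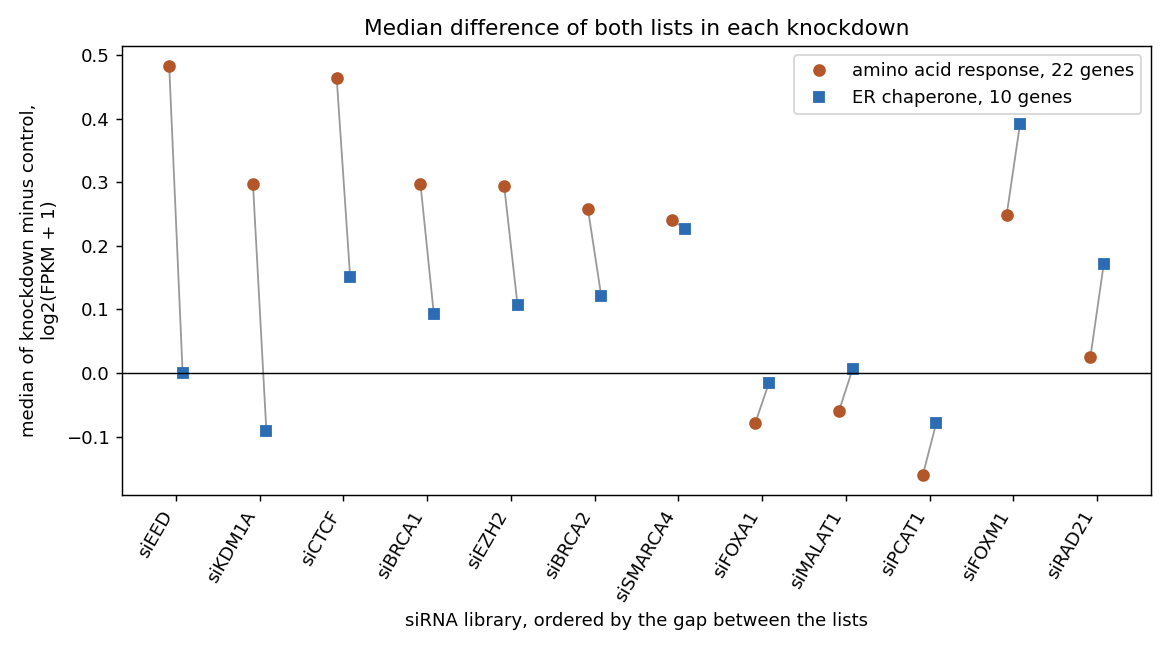
Median difference from the control of the 22 amino acid response genes (brown circles) and the 10 ER chaperone genes (blue squares) in each knockdown library, on the log2(FPKM + 1) scale, ordered by the gap between the lists. The lists are farthest apart in siEED (0.48 against 0.00074), and the ER list is above the amino acid list in siFOXM1 (0.25 against 0.39).

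The siEED and siFOXM1 libraries, chosen after their values were seen, were therefore compared directly, which leaves the control out. In siEED relative to siFOXM1, 15 of 22 amino acid response genes and 1 of 10 ER chaperone genes were higher, beside 48.9% of all genes. The medians were 0.22 for the amino acid response, -0.41 for ER chaperones and -0.0079 for all genes. CHAC1 (1.85) and SLC7A5 (1.05) were at least 2-fold higher in siEED, beside 3.63% of all genes, and MTHFD2 (0.91), ASNS (0.81) and AARS (0.76) followed. DNAJB9 (-1.04) was at least 2-fold lower in siEED, beside 3.02% of all genes, and CALR (-0.86), HSPA5 (-0.75) and HYOU1 (-0.70) followed. The 7 amino acid response genes that were lower in siEED were PPP1R15A (-0.68), CTH (-0.58), DDIT4 (-0.43), DDIT3 (-0.36), TRIB3 (-0.35), VLDLR (-0.21) and PSAT1 (-0.17). These 2 libraries also differed in genes of mitosis and in interferon-stimulated genes. The median difference from the control over 6 mitosis genes was -0.27 in siEED and -3.26 in siFOXM1. Over the interferon-stimulated genes it was 0.18 and 4.93. The part of either in the stress gene difference was not tested.

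**Figure D4:**
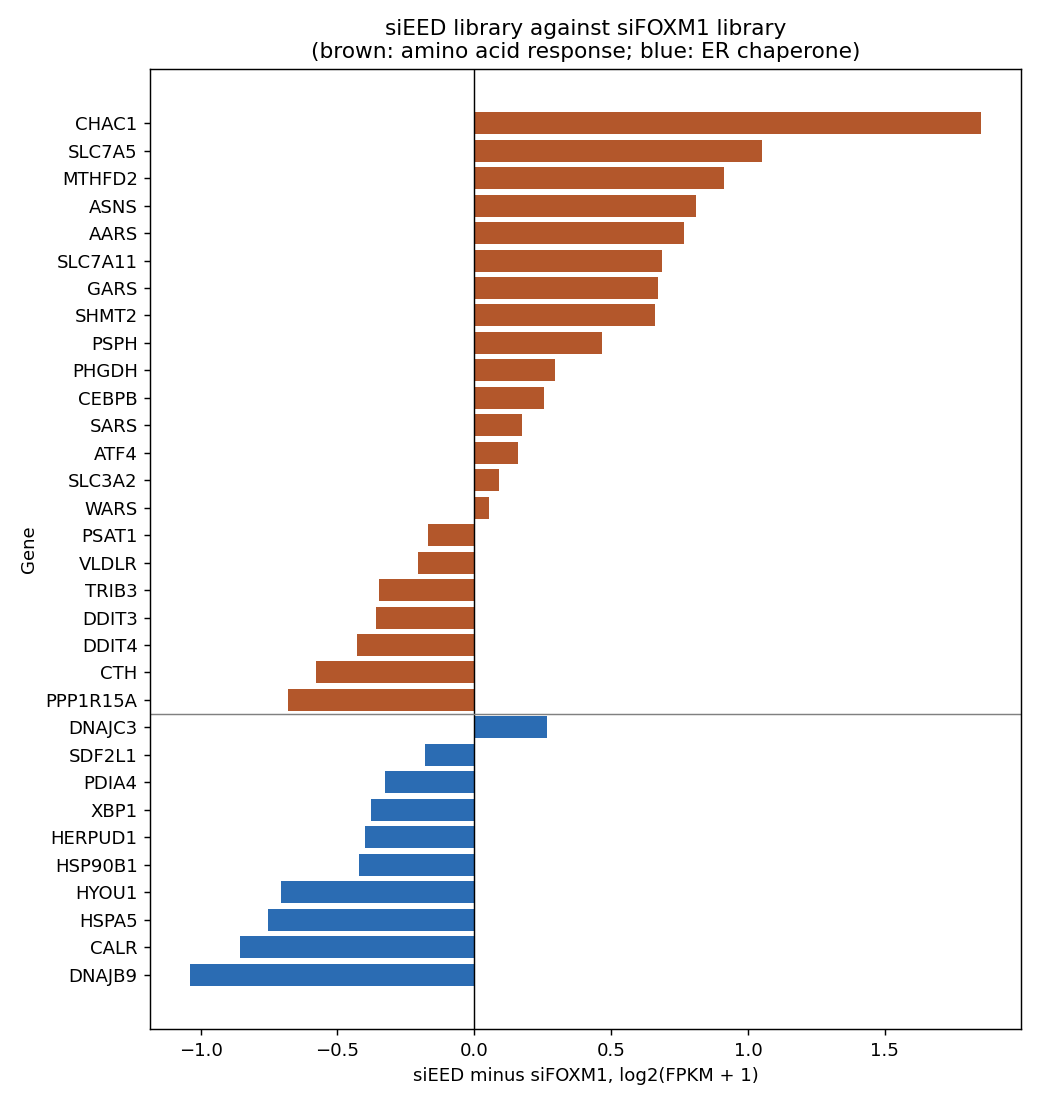
Difference between the siEED and the siFOXM1 library for each of the 32 genes on the log2(FPKM + 1) scale, with bars to the right where siEED was higher, amino acid response genes in brown above and ER chaperone genes in blue below. Of the brown bars 15 of 22 point right, and of the blue bars 9 of 10 point left, with DNAJC3 the exception.

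Knockdowns of related factors were also set side by side. EED and EZH2 are both subunits of the Polycomb complex PRC2. In siEED relative to siEZH2, MTHFD2 was higher by 0.98, CHAC1 by 0.94 and ASNS by 0.72, and the ER chaperone median was -0.26, but 0 of 32 genes were 2-fold apart, beside 3.86% of all genes. CTCF and RAD21 act together at chromatin loops. In siCTCF relative to siRAD21, DDIT4 was higher by 1.25 and SLC7A5 by 1.02, 2 of 32 genes beside 3.62% of all genes, and the amino acid response median was 0.30. In siFOXA1 relative to siFOXM1, 9 of 10 ER chaperone genes were lower, beside 49.2% of all genes, and DNAJC3 was the exception (0.53). XBP1 (-1.07) and DDIT4 (-1.06) were 2-fold lower, 2 of 32 genes beside 5.6% of all genes 2-fold apart. Between siBRCA1 and siBRCA2, 0 of 32 genes were 2-fold apart, beside 1.5% of all genes.

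The siPCAT1 library, the library labelled siMALAT1 and the control were at the low end for DDIT3, PPP1R15A, CHAC1 and HERPUD1, but not for ATF4, DDIT4 or, in the knockdowns, VLDLR. The control was the lowest of 13 libraries for DDIT3, PPP1R15A and SARS, 3 of 32 genes, beside 4.77% of all genes, and the highest for 0, beside 5.28%. Among the 12 knockdowns, siPCAT1 or the library labelled siMALAT1 was the lowest for 17 of 32 genes, beside 15.7% of all genes. This held for 13 of the 22 amino acid response genes. Against the median of the other 11 knockdowns, siPCAT1 was lower by 2-fold or more for CHAC1 (-1.30), HERPUD1 (-1.14) and DNAJB9 (-1.05), although it differed from the control by -0.17, -0.28 and -0.07. The 2-fold increases of these genes were taken against a control library at the low end of the 13, with siPCAT1 near it. For DDIT3, PPP1R15A, CHAC1 and HERPUD1, the library labelled siMALAT1 was also near the control. Against the median of the other 11 knockdowns, CHAC1 in siEED was still 2-fold higher (1.12). What sets the low level of the control and the libraries near it was not tested.

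Other genes of the pathway, listed by role, gave further values. Of 20 other ATF4-response genes, 4 were 2-fold apart from the control in some library, a share near the 16% of all genes. Over genes and knockdowns, 24 of 240 differences were 2-fold upward, beside 1.10% over all genes, and 1 of 240 downward, beside 2.04%. All the upward ones were in ATF3, SESN2 and GDF15. ATF3, a stress-induced factor of the same family, was at 53.1 FPKM in siFOXM1 and 49.2 in siEED, against 8.76 in the control. It was 2-fold higher or more in 10 knockdowns, and the exceptions, the library labelled siMALAT1 (10.9) and siPCAT1 (11.2), were those near the control for DDIT3 as well. SESN2, a stress-induced inhibitor of mTORC1 that p53 also turns on, was at 15.9 FPKM in siCTCF against 3.63, and the growth factor gene GDF15, likewise a p53 target, at 40.1 against 4.13. The glutamine carrier gene SLC1A5 was at 11.8 FPKM in siFOXA1 against 25.4 (-1.04). The medians of the 20 genes ran from -0.29 in siPCAT1 to 0.29 in siCTCF, and siEED and siCTCF were each the highest library for 5 of them, beside 7.16% and 8.66% of all genes. The p53 target list, over 9 other genes, had median log2 differences from the control between 0.09 in siEED and 0.84 in siSMARCA4. SESN2 and GDF15 were each 2-fold higher in 7 knockdowns, and GDF15 was at 30.6 FPKM in siFOXM1, where the p53 median was 0.24. In siCTCF, where both were highest, the p53 median was 0.33. There 4 of the 9 p53 targets were 2-fold higher, beside 1.27% of all genes. siEZH2 also had 4, beside 0.894% (median 0.57), and siSMARCA4 had 3, beside 0.494%. Among the 9, the cell cycle inhibitor CDKN1A was at 440.0 FPKM in siCTCF against 22.5 in the control (4.23). BBC3 (1.43) and MDM2 (1.25) were also highest in siCTCF. The part of p53 signalling in SESN2 and GDF15 was not tested.

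Of 15 other cytosolic tRNA synthetases measured, 0 reached 2-fold in any knockdown, beside 16% of all genes. The siEED and siBRCA1 libraries were each the highest for 5, beside 7.16% and 8.06% of all genes. CARS, for cysteine, reached 43.3 FPKM in siEED, with 24.3 in the control (0.81), and MARS, for methionine, 97.3, with 60.6 (0.67). LARS, for leucine, and FARSB, a subunit of the phenylalanine enzyme, were lowest in siFOXA1 (-0.71 and -0.67). Among the 14 genes of eIF2 kinases, eIF2, its exchange factor eIF2B and ER sensors, 0 reached 2-fold, beside the same 16%. ERN1, which encodes IRE1, was at 7.39 FPKM in siFOXM1 against 3.56 in the control (0.88), and the double-stranded RNA sensor kinase EIF2AK2, an interferon-stimulated gene, at 21.7 against 11.7 (0.84). EIF2AK3, the ER kinase PERK, was highest in siBRCA2 at 14.8 FPKM against 8.18 (0.79), and EIF2S2, the beta subunit of eIF2, was lowest in siFOXM1 (-0.71).

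Of 21 other genes of ER folding and degradation, siFOXM1 was the highest library for 10, beside 10.4% of all genes. SEC24D, a coat protein of vesicles that leave the ER, was at 68.2 FPKM in siFOXM1 against 32.3 in the control (1.06). The lectin chaperone CANX was at 75.5 FPKM in siEED against 153 (-1.01), beside the low CALR there. In the library labelled siMALAT1, in which HYOU1 was low, the disulfide isomerase P4HB was also lowest at 213 FPKM against 379 (-0.83), as was DERL3, a gene of ER-associated degradation, at 0.795 against 2.00 (-0.74).

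Chaperones outside the ER showed other patterns. Of 8 cytosolic heat shock genes measured, HSPB1 (-1.14), HSP90AA1 (-0.79) and HSPA8 (-0.58) were lowest in siKDM1A, the library that was also lowest in XBP1, and BAG3 was lowest in siPCAT1 (-0.58). Of 6 mitochondrial chaperone and protease genes, YME1L1 was lowest in siKDM1A (-1.15), HSPD1 (-0.94) and CLPP (-0.43) in siFOXA1 and LONP1 in siFOXM1 (-0.71).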

How the data were processed

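Libraries were made with a TruSeq RNA kit, per the labels' protocols. TopHat, Cufflinks and hg19 are named, without versions, in the submitters' processing notes. The authors deposited log2 FPKM for 22613 entries per library. Because the floor of these values equals log2 of 0.1, they were read as log2(FPKM + 0.1), an offset no label states. Sorted values of the 13 libraries differed by at most 0.0562, so a common distribution had been imposed, a step recorded in no label, which hides any shift in total RNA. Strand use and depth are not given in the sources used here.

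Values were converted to FPKM (below 1e-09 set to 0) and to log2(FPKM + 1). Genes with a mean of at least 0.5 FPKM were kept and 771 entries with small RNA symbols left out, leaving 15780. With 1 library per group, counts of 2-fold differences and list medians were computed across all genes, with Python 3.11.15, numpy 2.4.6 and pandas 2.3.3. The code was tested on simulated data. Given in every library were the members with a 2-fold difference anywhere, plus ATF4, XBP1 and HSPA5. The 4 genes with the largest difference were named from each of 6 further pathway lists, and 3 lists (interferon, p53, mitosis) served as context. Members and lists were chosen with earlier results of these data known. Promoters came from RefSeq. Alternatives were a pseudocount of 0.1, other filters, quantile normalization, centring, the other knockdowns as baseline, 1.5-fold, list means in place of medians, the amino acid response list without its 4 synthetases and, added after seeing the data, the series without the library labelled siMALAT1.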

Additional observations from a re-analysis of the deposited data

How the results depend on the processing

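No depth or replicate error was available, so the limits of these values come from 1 library per group and 1 shared control. The 20 upward and 1 downward 2-fold differences of amino acid response genes, and the 8 upward and 1 downward of ER chaperone genes, kept within 1.5 times under a pseudocount of 0.1, a minimum mean of 5 FPKM (which removed 2 members) and centring. Dropping the filter could not change them, since all 32 genes passed it, and quantile normalization had little to move in libraries that already share a distribution. At 1.5-fold they were 51 and 11, and 20 and 4. Against the median of the other 11 knockdowns, which leaves out the control library, the upward counts were 4 and 0, and the ER downward count was 3. Only 3 of the 30 differences then stayed 2-fold, none of the 30 changed sign, and 6 of 24 list medians did. Leaving out the library labelled siMALAT1, an alternative added after the values were seen, left 0 downward ER differences. The amino acid response median was above the ER median in 7 of 12 knockdowns, and in 5 to 7 under the alternatives. No paired analysis was possible because each group has 1 library.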
